A study of Mus musculus with 6 samples.

Results

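The interferon-stimulated antiviral genes described here are 32 genes of antiviral effectors, nucleic acid sensors and interferon signal factors, without antigen presentation genes. They were chosen by symbol, with earlier results of these data known. All 32 were found among the 41214 genes of the table, 22322 of which had reads. Of the 32, 10 fell in CdGAP-depleted cells and 1, Bst2, rose, while 15 did not pass the test and 6 had too few reads to be tested. Over all tested genes, 11.1% were lower and 9.92% higher, and 5 of the 10 had enough reads to be tested in shCON alone. Those that fell were 5 of the 7 Oas genes, Mx1, Rsad2, Isg15, Ifit1 and Xaf1. The calls of Ifit1, Xaf1 and Bst2 were less steady, passing in 7 of 14, 8 of 14 and 4 of 15 alternative fits.

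RNA came from cultured mammary tumor explant cells of the mouse. They go back to NMuMG, a line of mouse mammary epithelium, and carry Neu-NT, the oncogenic version of the ErbB2 receptor. The genotypes were Neu-NT shCdGAP, in which a short hairpin RNA depletes CdGAP, and Neu-NT shCON, which carries a control hairpin, with 3 libraries each. Both groups express Neu-NT and were kept in serum, insulin and G418, and neither was given interferon or virus as far as the labels say. All 6 libraries carry a hairpin, so a fall in shCdGAP cannot be told apart from a raised level in shCON. Fell and rose here mean relative to shCON. Arhgap31 encodes CdGAP, which turns off the small GTPases Cdc42 and Rac1. The cell type label names a control hairpin for all 6 samples, so the groups were told apart by title and genotype. Whether a group's libraries stem from separate cultures or clones is not stated, and p-values therefore cover just the variation among these 6 libraries, possibly technical.

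Type I and type III interferons signal through their receptors and the kinases Jak1 and Tyk2 to a complex that contains Stat2 and Irf9. That complex binds the interferon-stimulated response element (ISRE) in the promoters of antiviral genes. Many of these genes also have a basal level without added interferon. Epithelial cells use the program against viruses, sensing foreign RNA with the proteins encoded by Ddx58 and Ifih1 and foreign or misplaced DNA with that encoded by Mb21d1.

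Arhgap31 stood at 0.149, 0.826 and 0.748 FPKM (fragments scaled for gene length and depth) in shCdGAP replicates 1, 2 and 3, against 1.19, 1.30 and 1.35 FPKM in shCON, lower in every shCdGAP library. Its log2 fold change missed the threshold with all 6 libraries (-0.56, adjusted p = 0.0836, limma) and passed it without shCdGAP replicate 1 (-0.35, adjusted p = 0.0157). Replicate 1 had the least Arhgap31 RNA of the 6, so every fit without it leaves out the most depleted library. Total reads ran from 22088774 to 25893195 in shCdGAP and from 19176540 to 26824249 in shCON. Replicate 1 of shCdGAP stood apart: across genes, which are not independent replicates, its log2 values had correlations of 0.948 and 0.938 to replicates 2 and 3, and those libraries one of 0.996. Its median over 12 proliferation genes was 2.38 on the log2(FPKM + 1) scale, against 6.19 and 6.04 in the other shCdGAP libraries and 4.81 to 5.39 in shCON. The epithelial keratins Krt8 and Krt18 were at 1546 to 3022 and 1813 to 2901 FPKM in shCdGAP, and at 1491 to 2259 and 1789 to 2369 FPKM in shCON, whereas Cldn7 had 0 reads throughout. Of the 10 epithelial markers 7 were tested: Cdh1 (152 to 184 FPKM in shCdGAP, 37.9 to 57.2 in shCON) and Krt7 were higher, and Krt5 and Epcam (0 reads in shCdGAP, 0.517 to 0.812 FPKM in shCON), tested through shCON alone, were lower. Of 12 leukocyte markers, which could bring interferon-stimulated transcripts, Adgre1 and Tyrobp had 0 reads in all libraries and Ptprc reached at most 0.0197 FPKM in shCdGAP and 0.0168 FPKM in shCON. That list summed to 65.3 to 129 FPKM in shCdGAP and 107 to 113 FPKM in shCON, mainly from Cd14 and Cd68, which other cells also express. Of its 4 tested genes, Cd68 was lower in shCdGAP, at 8.45, 4.42 and 2.37 FPKM against 17.3, 12.2 and 12.3 FPKM in shCON, and Itgam, tested through shCdGAP alone, was higher, at 0.178 to 0.257 FPKM in shCdGAP against 0.0117 to 0.0487 in shCON. The part of these markers in the results was not tested. The sums of 8 fibroblast markers were 0.598 to 1.10 FPKM in shCdGAP and 0.808 to 0.947 FPKM in shCON, and those of 6 endothelial markers at most 0.0300 FPKM in shCdGAP and 0.304 FPKM in shCON.

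The ISRE letters searched were GAAA, any 2 bases and GAAA again, on both strands, in RefSeq promoters of build GRCm38.p6 that run from 250 bases before to 50 bases after each gene's start. Of the 22 antiviral genes with such a promoter, 13 (59.1%) held a match, against 3.99% of 27025 gene symbols with a promoter of the same length. Matches stood in 6 of the 8 genes with a promoter that fell, in Bst2, in 3 of 9 that did not pass the test and in 3 of 4 that were not tested. The letters TTCNNNGAA, the core of the gamma-activated site, were found in 5 of the 22 promoters and in 9.55% of all symbols, and in Bst2 this match overlaps the ISRE match. The upstream stretches printed here, 5′ to 3′ on the gene's strand, are those of the 6 genes with a match that fell, of Bst2 and of Stat2, which did not pass, with the ISRE matches in capitals, read on either strand. A match is a description of the letters and not a bound site.
Isg15 (chr4:156200850-156200921, minus strand): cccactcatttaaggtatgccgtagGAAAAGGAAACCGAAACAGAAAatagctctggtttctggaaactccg
Oas1a (chr5:120907526-120907570, minus strand): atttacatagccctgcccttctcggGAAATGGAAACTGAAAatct
Oas1g (chr5:120887614-120887656, minus strand): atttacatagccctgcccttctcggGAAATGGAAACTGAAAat
Oas3 (chr5:120777700-120777759, minus strand): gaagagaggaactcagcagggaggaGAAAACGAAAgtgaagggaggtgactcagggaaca
Ifit1 (chr19:34640760-34640838, plus strand): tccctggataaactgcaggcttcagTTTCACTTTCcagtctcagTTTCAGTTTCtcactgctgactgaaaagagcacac
Rsad2 (chr12:26456538-26456597, minus strand): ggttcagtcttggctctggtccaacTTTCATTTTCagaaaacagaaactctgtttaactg
Bst2 (chr8:71537562-71537627, minus strand): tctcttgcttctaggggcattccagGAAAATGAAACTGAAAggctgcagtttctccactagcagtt
Stat2 (chr10:128270251-128270310, plus strand): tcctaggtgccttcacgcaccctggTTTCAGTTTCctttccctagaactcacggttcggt
Isg15 holds 3 overlapping matches, Oas1a, Oas1g and Bst2 hold 2 overlapping matches each, and Ifit1 holds 2 that do not overlap. The Oas1a and Oas1g stretches are the same over the first 43 bases, and both end at the base before the gene's start.

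The shares of all tested genes called, 11.1% lower and 9.92% higher in shCdGAP, come from the same test (limma on log2(FPKM + 1), 2-sided, Benjamini-Hochberg adjusted p under 0.05, 13483 genes). Of the 32 antiviral genes, 10 were lower and 1 higher, and 26 were tested. The list was chosen with earlier results of these data known, so its counts and medians may partly reflect that choice. Oas1a, Oas1b, Oas1g, Oas3 and Rsad2 passed the filter on low reads through the shCON libraries alone, so a difference was built into their being tested, and the counts are given as a description. The median log2 fold change of the 26 was -0.34, against -0.010 over all tested genes. It includes the genes tested through shCON alone, so it was partly built in and is a description too. Of all 13483 tested genes, 422 were tested that way, so the comparison of medians is uneven. Without shCdGAP replicate 1 the median of the 26, with the same genes in it, was -0.34. In that fit 16 were lower and 1 higher, where 20.0% and 19.9% of all tested genes were lower and higher. Among the 26, the shCdGAP libraries lay wholly below the shCON libraries for 11 and wholly above them for 4, against 22.3% and 21.8% of all tested genes. In the authors' deposited table, 13 of the 32 were lower and 2 higher, against 12.5% and 11.3% of the 16970 genes with an adjusted p there.

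**Figure D1:**
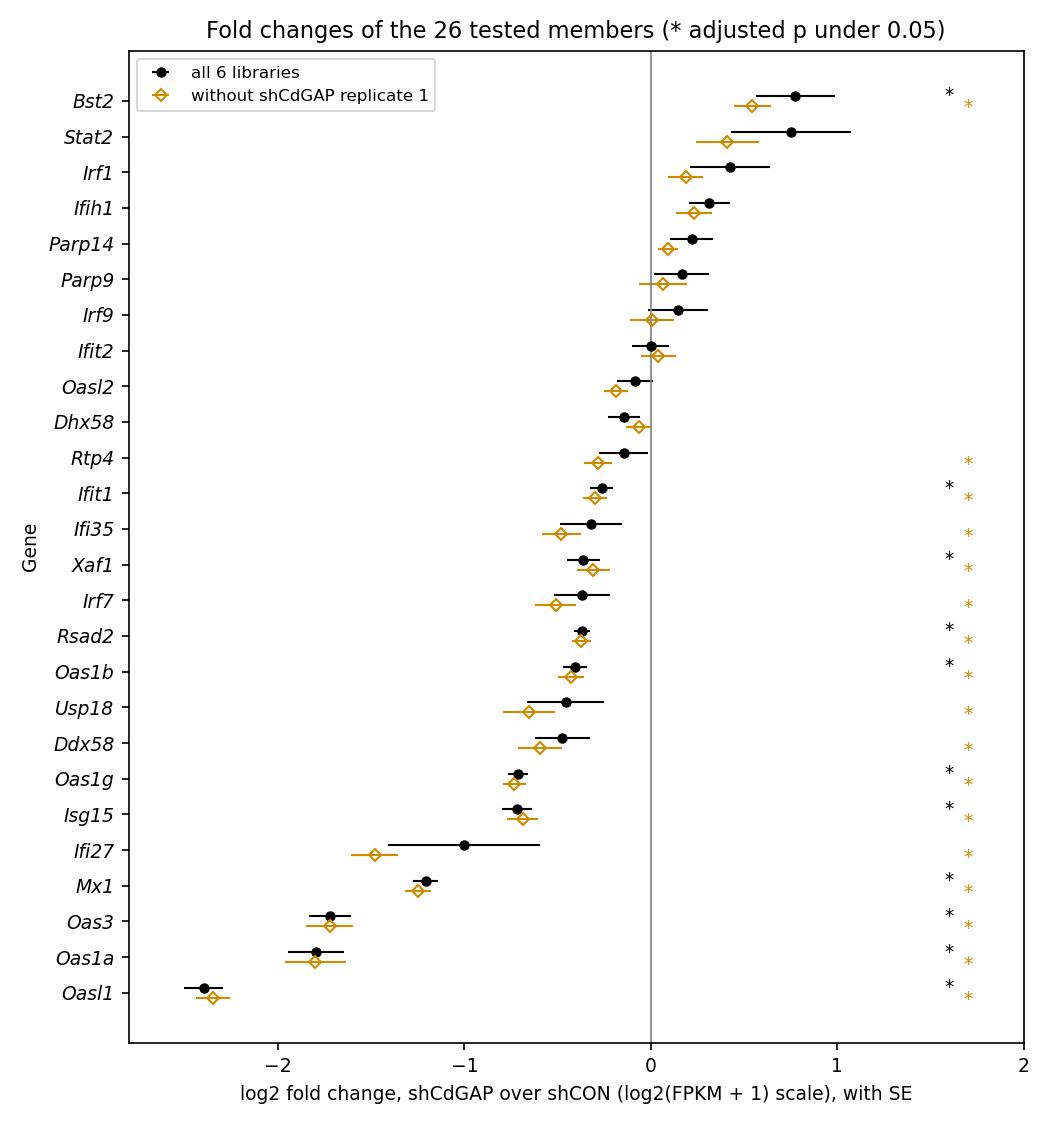
Log2 fold change, shCdGAP over shCON on the log2(FPKM + 1) scale, of each of the 26 tested antiviral genes, with all 6 libraries (filled circles) and without shCdGAP replicate 1 (open diamonds); bars are SE and asterisks mark an adjusted p under 0.05. Oasl1, Oas1a, Oas3 and Mx1 lie at -2.40, -1.80, -1.72 and -1.21 with all libraries, and Ifi27 lies at -1.0, and at -1.48 when that library is left out.

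The Oas genes encode oligoadenylate synthetases, which sense double-stranded RNA and make a messenger that switches on RNase L. Their summed level was 2.78, 2.52 and 3.07 FPKM in shCdGAP replicates 1, 2 and 3, against 22.2, 23.6 and 24.6 FPKM in shCON. In bulk RNA, fewer cells that express a gene and less of its RNA per cell cannot be told apart. Oasl1, an inactive family member known in mouse to restrain Irf7 translation (ENSMUSG00000041827, chromosome 5, 114923240 to 114937915 of mm10, plus strand), made up most of that sum. Oasl1 stood at 2.13, 2.25 and 2.73 FPKM in shCdGAP and 17.1, 16.3 and 16.8 FPKM in shCON. All shCdGAP libraries were far below all shCON libraries, with means of 2.37 ± 0.318 and 16.7 ± 0.381 FPKM (SD, n = 3 each). It fell by 2.40 on the log2 scale (SE 0.11, limma, adjusted p = 9.76e-05).

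Oas3, the largest of the synthetases (ENSMUSG00000032661, chromosome 5, 120753098 to 120777661, minus strand), had 2, 0 and 3 reads in shCdGAP and 186, 382 and 361 in shCON. That is 0.0167, 0 and 0.0231 FPKM in shCdGAP, against 1.84, 2.66 and 2.58 FPKM in shCON. The fitted change was -1.72 on the log2 scale (SE 0.11, limma, adjusted p = 3.68e-04). The added 1 FPKM understates the fold where levels are low, and as a ratio of mean FPKM the shCdGAP level was 0.00563 of the shCON level. Oas1a, a catalytically active synthetase (ENSMUSG00000052776, chromosome 5, 120896256 to 120907521, minus strand), stood at 0.116, 0.0725 and 0.149 FPKM in shCdGAP and 2.11, 3.11 and 3.51 FPKM in shCON. The groups did not overlap, and Oas1a fell by 1.80 on the log2 scale (SE 0.15, limma, adjusted p = 8.25e-04).

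Oas1g, its neighbour and close paralog (chromosome 5, 120876142 to 120887613, minus strand), had 2, 0 and 0 reads in shCdGAP and 27, 43 and 45 in shCON (log2 fold change -0.71, adjusted p = 5.45e-04, limma). From these reads the ratio of shCON to shCdGAP was 54.4, with a 95% interval of 14.7 to 455 (exact Clopper-Pearson on the split of reads, which like all read intervals here covers counting error only). Oas1b, known in mouse for its part in resistance to flaviviruses (chromosome 5, 120812635 to 120824163, plus strand), stood at 0.0878, 0.0686 and 0.0202 FPKM in shCdGAP and 0.312, 0.420 and 0.488 FPKM in shCON. It fell by 0.41 on the log2 scale (SE 0.06, limma, adjusted p = 0.00792). Of the 50-base windows in the longest GENCODE transcript of Oas1a, 57.6% also occur in Oas1g, and 54.1% of those of Oas1g occur in Oas1a, so the split of reads between this pair is uncertain.

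Oas2 and Oasl2 complete the family. Oas2 had 1, 2 and 0 reads in shCdGAP and 5, 20 and 16 in shCON and was not tested. Its ratio of shCON to shCdGAP from these reads was 12.9 (95% interval 4.13 to 65.3), and the authors' deposited table called it lower (log2 fold change -2.32, adjusted p = 0.00215, DESeq2). Oasl2, which in mouse keeps synthetase activity, averaged 0.211 ± 0.150 FPKM in shCdGAP and 0.280 ± 0.0625 in shCON (SD, n = 3 each), with overlapping ranges (adjusted p = 0.584, limma). It passed as lower without both libraries numbered 1 (log2 fold change -0.22, adjusted p = 0.019).

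**Figure D2:**
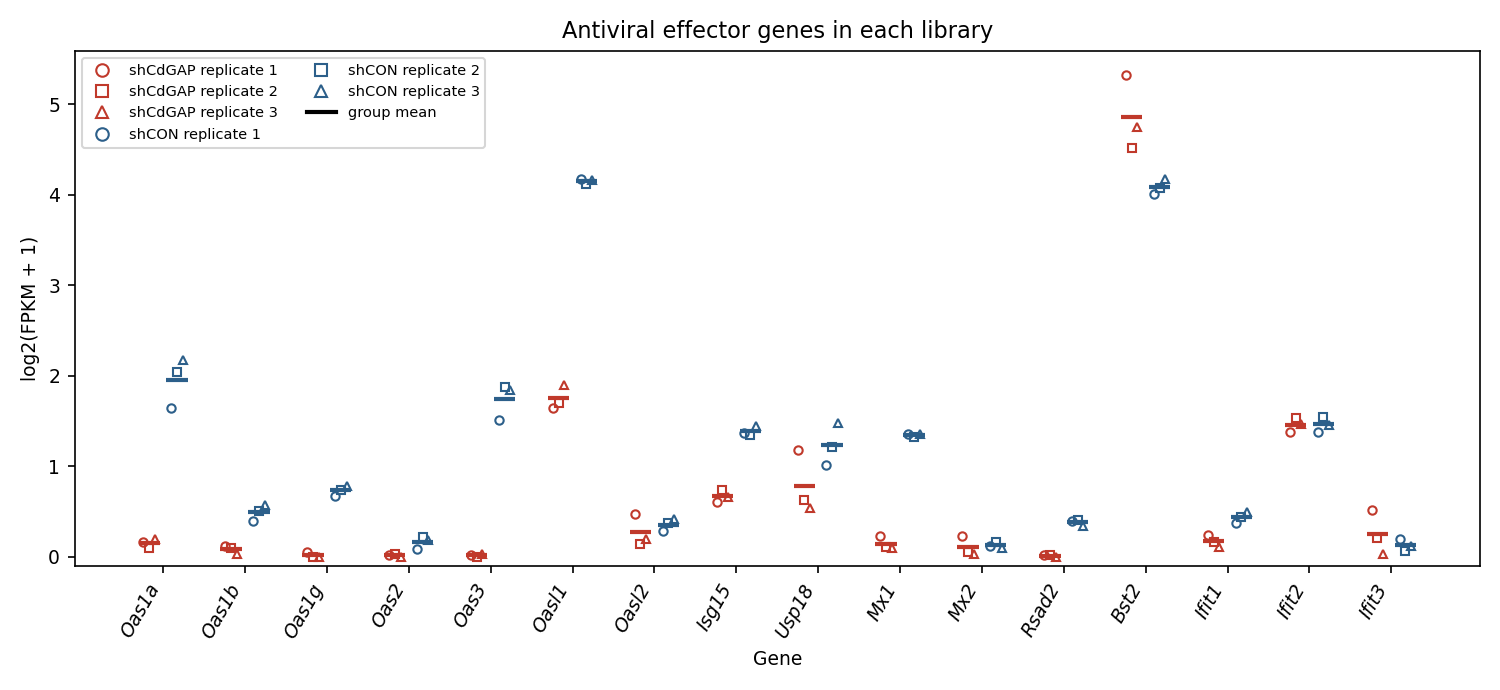
Level, as log2(FPKM + 1), of 16 antiviral effector genes in each shCdGAP (red) and shCON (blue) library; symbols mark replicates 1 to 3 and lines the group means. The shCdGAP points of Oas1a, Oas3, Oasl1, Isg15 and Mx1 lie below all shCON points, those of Bst2 above them, and those of Ifit2 among them.

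The stretch of chromosome 5 from Oas2 to Oas1a spans 177 kb and also holds Oas3 and other Oas1 genes. Within that span and 300 kb to either side, 5 Oas genes were tested and all 5 were lower, but 4 of them passed the filter through shCON alone, so that this tally had the fall built in. The other was Oas1c, which is not one of the 32 (log2 fold change -1.09, adjusted p = 6.19e-04, limma). Of 10 other genes tested there, 1 was higher and 0 were lower, against 9.92% and 11.1% of all tested genes. Their median log2 fold change was 0.062. The 1 higher was Sdsl, at 7.13 ± 2.97 FPKM in shCdGAP and 3.04 ± 0.406 in shCON (SD, n = 3 each). Without shCdGAP replicate 1, Slc8b1 passed as lower (-0.83, adjusted p = 0.00841, limma) and Sdsl and Ptpn11 as higher (0.67 and 0.29). In that fit 20.0% of all tested genes were lower and 19.9% higher. The median tested gene of chromosome 5 was at -0.014. Around Oasl1 and Oasl2, a second locus on the same chromosome, 4 of 18 other tested genes were higher, 3 of them tested through shCdGAP alone, and 1 was lower. The shares of all tested genes were 9.92% and 11.1%. The 1 lower was Trpv4, at 0.249 ± 0.0716 FPKM in shCdGAP and 2.22 ± 0.370 in shCON (SD, n = 3 each). Its log2 fold change was -1.36 (adjusted p = 6.83e-04, limma).

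**Figure D3:**
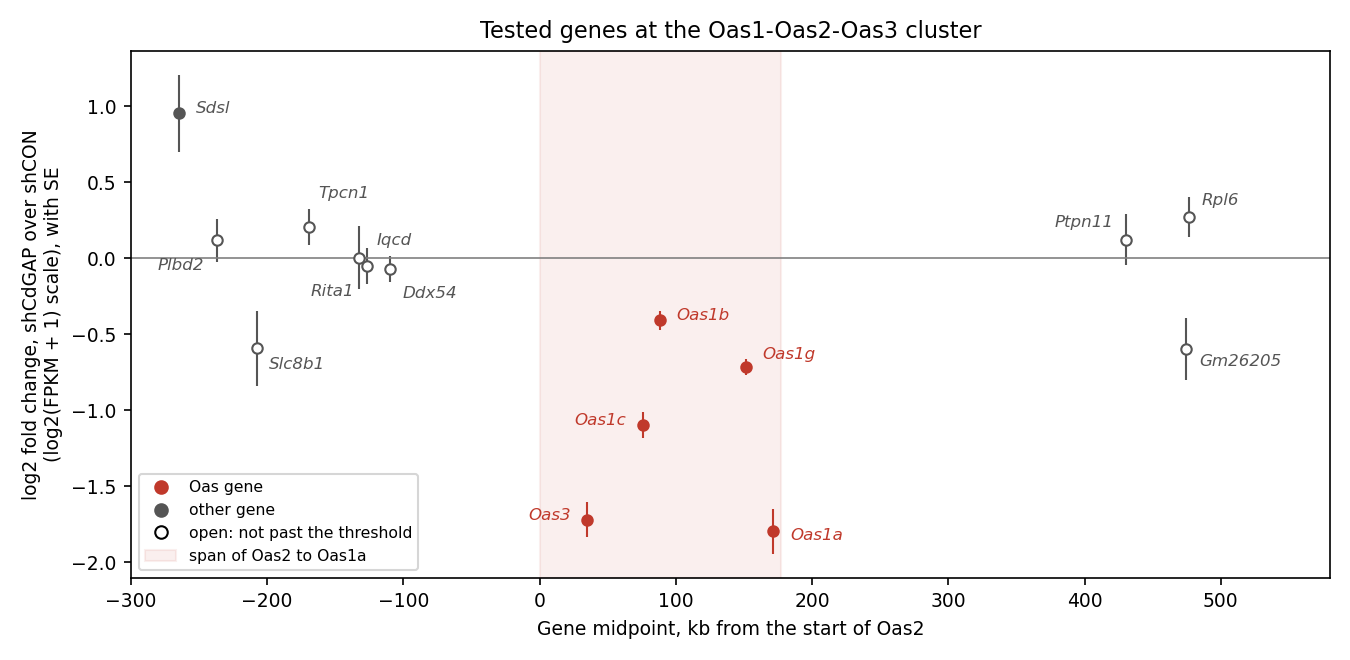
Log2 fold change with SE (shCdGAP over shCON, log2(FPKM + 1) scale) of the tested genes at the Oas cluster of chromosome 5, by distance of the gene's midpoint from the start of Oas2 in kb; red points are Oas genes, grey points other genes, and open points did not pass the threshold. All 5 Oas points lie below 0, from -0.41 to -1.80, while the 10 other genes spread from -0.60 to 0.96.

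Among the other effectors, Mx1, a dynamin-like GTPase that blocks influenza virus in mouse (ENSMUSG00000000386, chromosome 16, 97447035 to 97462907, minus strand), stood at 0.168, 0.0750 and 0.0662 FPKM in shCdGAP and 1.56, 1.51 and 1.57 FPKM in shCON. The groups were well apart and Mx1 fell by 1.21 on the log2 scale (SE 0.07, limma, adjusted p = 2.07e-04), and the median tested gene of chromosome 16 was at -0.25. Rsad2, encoding viperin (chromosome 12, 26442746 to 26456452, minus strand), had 1, 1 and 0 reads in shCdGAP and 26, 39 and 31 in shCON. It fell by 0.37 on the log2 scale (SE 0.04, limma, adjusted p = 0.00271), and its ratio of shCON to shCdGAP from reads was 45.4 (95% interval 12.2 to 381). Isg15, the ubiquitin-like modifier (ENSMUSG00000035692, chromosome 4, 156199424 to 156200818, minus strand), stood at 0.521, 0.663 and 0.586 FPKM in shCdGAP and 1.57, 1.54 and 1.73 FPKM in shCON, without overlap. It fell by 0.72 on the log2 scale (SE 0.08, adjusted p = 0.00234, limma), from 31 reads in all in shCdGAP and 90 in shCON. Usp18, the protease that removes the Isg15 protein and also restrains receptor signaling, was at 1.26, 0.540 and 0.455 FPKM in shCdGAP and 1.02, 1.31 and 1.79 FPKM in shCON. Replicate 1 of shCdGAP lay among the shCON values, and Usp18 passed only without that library or without both libraries numbered 1 (adjusted p = 0.178 with all libraries, 0.0124 and 0.00199 without).

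Bst2, encoding tetherin, which holds budding virions at the cell surface, was the highest of the 32 in mean FPKM and the 1 that rose. It stood at 39.0, 21.9 and 25.8 FPKM in shCdGAP and 15.1, 15.8 and 17.1 FPKM in shCON (ENSMUSG00000046718, chromosome 8, 71534255 to 71537456, minus strand). Every shCdGAP library was above every shCON library, with replicate 1 the farthest, and the rise was 0.78 on the log2 scale (SE 0.21, limma, adjusted p = 0.0495). Without that replicate it was 0.54 (adjusted p = 0.00651, limma). The median tested gene of chromosome 8 was at 0.18 with all libraries and at 0.24 without that replicate. Leaving out shCON replicate 1, 2 or 3 ended the call (adjusted p = 0.149, 0.153 and 0.129), as did leaving out shCdGAP replicate 3 (0.0839) and a block for the replicate number (0.0749). The direction was the same in all 15 alternatives, and the authors' deposited table called Bst2 higher (log2 fold change 0.82, adjusted p = 0.00916, DESeq2).

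The Ifit1 protein binds viral RNA that lacks the host's cap marks. Ifit1 stood at 0.181, 0.120 and 0.0758 FPKM in shCdGAP and 0.292, 0.356 and 0.408 FPKM in shCON, from 23 and 70 reads in all. It fell by 0.26 on the log2 scale (SE 0.06, adjusted p = 0.0280, limma). Leaving out shCON replicate 2 or 3 ended that call (adjusted p = 0.105 each), as did leaving out shCdGAP replicate 2 or 3 (0.0976 and 0.0753) and the replicate block (0.0766). Its neighbour Ifit2 averaged 1.75 ± 0.150 FPKM in shCdGAP and 1.76 ± 0.150 in shCON (SD, n = 3 each), with a ratio of shCON to shCdGAP from reads of 1.01 and a 95% counting interval of 0.892 to 1.15 (adjusted p = 0.992, limma). Ifit3, with 24 reads in shCdGAP and 11 in shCON, and Mx2, with 19 and 25, were not tested. Of the 50-base windows of Ifit3, 51.2% also occur in Ifit3b, so its reads are uncertain.

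Among the RNA sensors, Ddx58, encoding RIG-I, stood at 2.21, 1.72 and 1.31 FPKM in shCdGAP and 2.47, 3.03 and 2.87 FPKM in shCON. The groups did not overlap, but the log2 fold change of -0.47 missed the threshold (SE 0.15, adjusted p = 0.0724, limma) and passed it without shCdGAP replicate 1 (-0.59, adjusted p = 0.00898). Ifih1, encoding MDA5, lay the other way, at 1.01, 0.859 and 0.552 FPKM in shCdGAP and 0.368, 0.490 and 0.481 FPKM in shCON. Its ranges did not overlap either, with a log2 fold change of 0.31 (adjusted p = 0.0977, limma), which passed without shCdGAP replicate 3 (adjusted p = 0.0313) and with quantile scaling (0.0280). The authors' deposited table called Ddx58 lower (adjusted p = 0.0313) and Ifih1 higher (adjusted p = 0.0283). Dhx58, encoding the regulator LGP2, was at 0.297 ± 0.119 FPKM in shCdGAP and 0.429 ± 0.0683 in shCON (SD, n = 3 each; adjusted p = 0.293, limma).

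None of the 4 interferon signal factors passed with all 6 libraries (limma; 0 at an unadjusted p under 0.05, 0 with limma-voom and 0 in the authors' deposited table). Stat2 stood at 22.0, 12.3 and 8.48 FPKM in shCdGAP and 8.69, 6.82 and 7.03 FPKM in shCON, with replicate 3 of shCdGAP inside the shCON range (log2 fold change 0.75, adjusted p = 0.157, limma). It passed without both libraries numbered 1 (0.51, adjusted p = 0.0365). Irf1, an early-induced activator, was at 15.8, 9.82 and 8.71 FPKM in shCdGAP and 7.49, 8.57 and 7.98 FPKM in shCON, a narrow separation led by replicate 1 (adjusted p = 0.222). Irf7, which amplifies the interferon response, was at 0.666, 0.332 and 0.160 FPKM in shCdGAP and 0.583, 0.795 and 0.953 FPKM in shCON. Its log2 fold change was -0.37 (adjusted p = 0.145), and -0.51 without shCdGAP replicate 1 (adjusted p = 0.0128). Irf9, the DNA-binding partner of Stat2, averaged 1.73 ± 0.482 FPKM in shCdGAP and 1.45 ± 0.271 in shCON (SD, n = 3 each; adjusted p = 0.569).

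**Figure D4:**
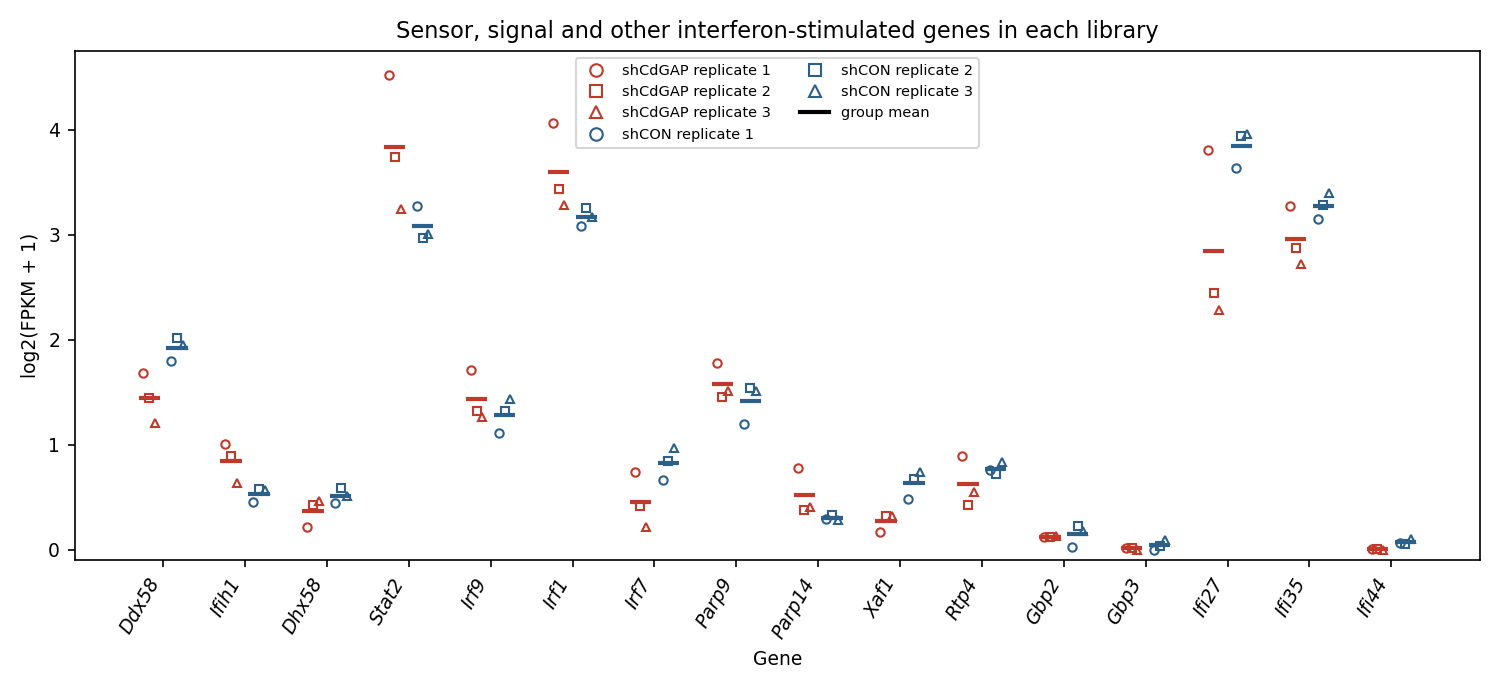
Level, as log2(FPKM + 1), of 16 sensor, signal and other interferon-stimulated genes in each shCdGAP (red) and shCON (blue) library; symbols mark replicates 1 to 3 and lines the group means. Replicate 1 of shCdGAP (red circle) is the top shCdGAP point for Stat2, Irf1, Ifi27, Ifi35, Irf7 and Parp14, and lies within the shCON range for Ifi27, Ifi35 and Irf7.

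Replicate 1 of shCdGAP was the highest of its group for 18 of the 26 tested antiviral genes, against 46.3% of all tested genes. Ifi27, a small mitochondrial and nuclear membrane protein gene, showed this most plainly, at 13, 4.44 and 3.87 FPKM in shCdGAP and 11.4, 14.3 and 14.6 FPKM in shCON. It missed the threshold with all libraries (log2 fold change -1.0, adjusted p = 0.142, limma) and passed without replicate 1 (-1.48, adjusted p = 3.54e-04). Ifi35, at 8.69, 6.30 and 5.59 FPKM in shCdGAP and 7.85, 8.74 and 9.54 FPKM in shCON, passed likewise only without the libraries numbered 1 (adjusted p = 0.0133 without that of shCdGAP, 0.00304 without both). Of its exonic bases 16.8% overlap the opposite-strand gene Gm11626. Rtp4, a regulator of antiviral signaling, with 13.9% of its exonic bases in Gm45338, was at 0.862, 0.348 and 0.461 FPKM in shCdGAP and 0.691, 0.647 and 0.784 FPKM in shCON (adjusted p = 0.478, and 0.0253 without shCdGAP replicate 1). Replicate 1 of shCdGAP had the least Arhgap31 RNA (0.149 FPKM). It lay within the shCON range for Ifi27 and Ifi35 and above it for Rtp4. The part of its low Arhgap31 and of its low proliferation genes in these values was not tested. Ifi44 had 2 reads in shCdGAP and 23 in shCON and was not tested, but was called lower in the authors' deposited table (adjusted p = 0.0162).

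Xaf1, a proapoptotic antagonist of XIAP, stood at 0.121, 0.253 and 0.249 FPKM in shCdGAP and 0.397, 0.597 and 0.670 FPKM in shCON, without overlap. It fell by 0.36 on the log2 scale (SE 0.09, adjusted p = 0.0357, limma), a call that ended without shCON replicate 2 or 3 (0.130 and 0.121) or shCdGAP replicate 2 or 3 (0.087 and 0.0669). The ADP-ribosyltransferase gene Parp9 was at 2.42, 1.74 and 1.84 FPKM in shCdGAP and 1.29, 1.90 and 1.85 FPKM in shCON, with overlap (adjusted p = 0.479). Its exons share 9.40% of their bases with the opposite-strand gene Dtx3l, and strand handling is not given in the sources used here. Parp14, another member of that family, was at 0.447 ± 0.232 FPKM in shCdGAP and 0.234 ± 0.0209 in shCON (SD, n = 3 each; adjusted p = 0.234). The guanylate-binding protein genes Gbp2 and Gbp3 were scarcely expressed, with 16 and 2 reads in shCdGAP and 22 and 8 in shCON, and were not tested.

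Upstream of these genes, few reads of interferon transcripts were found. Ifnb1, Ifna1, Ifna2, Ifna4, Ifnk, Ifnl2 and Ifnl3 were without a read (0 in each library, where 3 is the floor). Ifng had 5 reads in all in shCdGAP and 6 in shCON, and Ifne 1 in shCdGAP and 3 in shCON, and neither was tested. Of 23 listed ligand, receptor and signal chain genes, 14 were tested, 2 were higher and 1 lower, against 9.92% and 11.1% of all tested genes. Both chains of the type II interferon receptor rose. Ifngr1 stood at 79.1, 59.0 and 60.3 FPKM in shCdGAP and 19.6, 20.4 and 20.3 FPKM in shCON (log2 fold change 1.66, SE 0.14, adjusted p = 7.66e-04, limma). Ifngr2 stood at 31.4, 34.6 and 40.6 FPKM in shCdGAP and 19.9, 21.8 and 21.5 FPKM in shCON (0.72, adjusted p = 0.00990, and 0.0501 without shCON replicate 3). The type I receptor genes Ifnar1 and Ifnar2 did not pass (adjusted p = 0.305 and 0.799), although Ifnar1 did without shCdGAP replicate 1 (log2 fold change -0.33, adjusted p = 0.0222). Socs1, a feedback inhibitor of the Jak kinases, was lower at 0.648 ± 0.307 FPKM in shCdGAP and 1.65 ± 0.375 in shCON (SD, n = 3 each; adjusted p = 0.0357). Its call ended without shCON replicate 1, 2 or 3 (0.0548, 0.121 and 0.122) or shCdGAP replicate 2 (0.117).

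Of 19 genes that sense nucleic acids or carry the signal to interferon, 16 were tested, 5 were lower and 1 higher, against 11.1% and 9.92% of all tested genes. Of the 5 lower, 3 (Mb21d1, Irf8 and Tbkbp1) passed the filter through shCON alone, so the count is a description. Mb21d1, encoding the DNA sensor cGAS (chromosome 9, 78430526 to 78443237, minus strand), had the largest fall in that list, at 0, 0.0221 and 0.00976 FPKM in shCdGAP and 1.82, 2.24 and 2.18 FPKM in shCON. It fell by 1.61 on the log2 scale (SE 0.08, limma, adjusted p = 1.38e-04), from 3 reads in shCdGAP and 640 in shCON, a ratio of shCON to shCdGAP of 202 (95% interval 68.8 to 982). Tmem173, encoding STING, which acts downstream of cGAS, was higher instead, at 5.40, 6.25 and 5.86 FPKM in shCdGAP and 3.91, 4.11 and 3.47 FPKM in shCON (0.50, adjusted p = 0.0217). Irf8, Irf5, the TBK1 adaptor gene Tbkbp1 and Trim25, a ubiquitin ligase that acts on RIG-I, were lower, with log2 fold changes of -0.20, -0.22, -0.52 and -0.58. The calls of Tmem173, Irf5 and Trim25 were each lost without any 1 of the 5 libraries other than shCdGAP replicate 1 (adjusted p = 0.0588 to 0.103, 0.0693 to 0.132 and 0.0832 to 0.157). That of Irf8 ended without shCON replicate 1 or 2 (0.0607 and 0.107) or shCdGAP replicate 2 or 3 (0.0903 and 0.0689), and that of Tbkbp1 without shCdGAP replicate 2 or 3 (0.0692 and 0.0508). With the replicate block, Irf8, Irf5 and Trim25 did not pass (0.0564, 0.0667 and 0.0902).

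Of 47 other interferon-stimulated genes, 44 were found, 34 were tested, 6 were lower and 1 higher, against 11.1% and 9.92% of all tested genes, with a median log2 fold change of -0.12. Of the 6 lower, 4 (Herc6, Sp100, Epsti1 and Cmpk2) passed the filter through shCON alone, so that median too was partly built in. Herc6, the main Isg15 ligase in mouse, had 1 read in shCdGAP and 297 in shCON (log2 fold change -0.78, adjusted p = 0.00530, limma), a ratio of shCON to shCdGAP of 281 (95% interval 50.1 to 11144). Sp100, a nuclear body protein gene, had 0 reads in shCdGAP and 107 in shCON, at least 33.8-fold lower against a floor of 3 reads over the group (adjusted p = 0.00669). Besides Oas1c, the exonuclease gene Isg20 (log2 fold change -0.75), Epsti1 (-0.38) and the nucleotide kinase gene Cmpk2 (-0.16) were lower, and Lgals9, encoding galectin-9, was higher (0.81). In the authors' deposited table Isg20, Epsti1, Cmpk2 and Lgals9 were at -0.76, -2.54, -1.32 and 0.79 (DESeq2, without the added 1 FPKM). Isg20 lost its call without shCON replicate 2 or 3 (adjusted p = 0.0605 and 0.0585), and Epsti1 without shCON replicate 2 or shCdGAP replicate 2 or 3 (0.0567, 0.0574 and 0.0549). Lgals9 lost it without shCON replicate 1, 2 or 3 (0.119, 0.110 and 0.0910) or shCdGAP replicate 2 (0.108), and Cmpk2 lost it whichever single library was left out (0.051 to 0.149). With the replicate block, Lgals9 and Cmpk2 did not pass (0.102 and 0.0897). Across the 3 lists, 64 genes were tested, and 4 were higher and 12 lower with all libraries, against 9.92% and 11.1% of all tested genes. Without shCdGAP replicate 1 the counts were 6 and 23, where the shares of all tested genes also rose, to 19.9% and 20.0%. Of the 12, 7 were tested through shCON alone, so these counts too are a description.

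**Figure D5:**
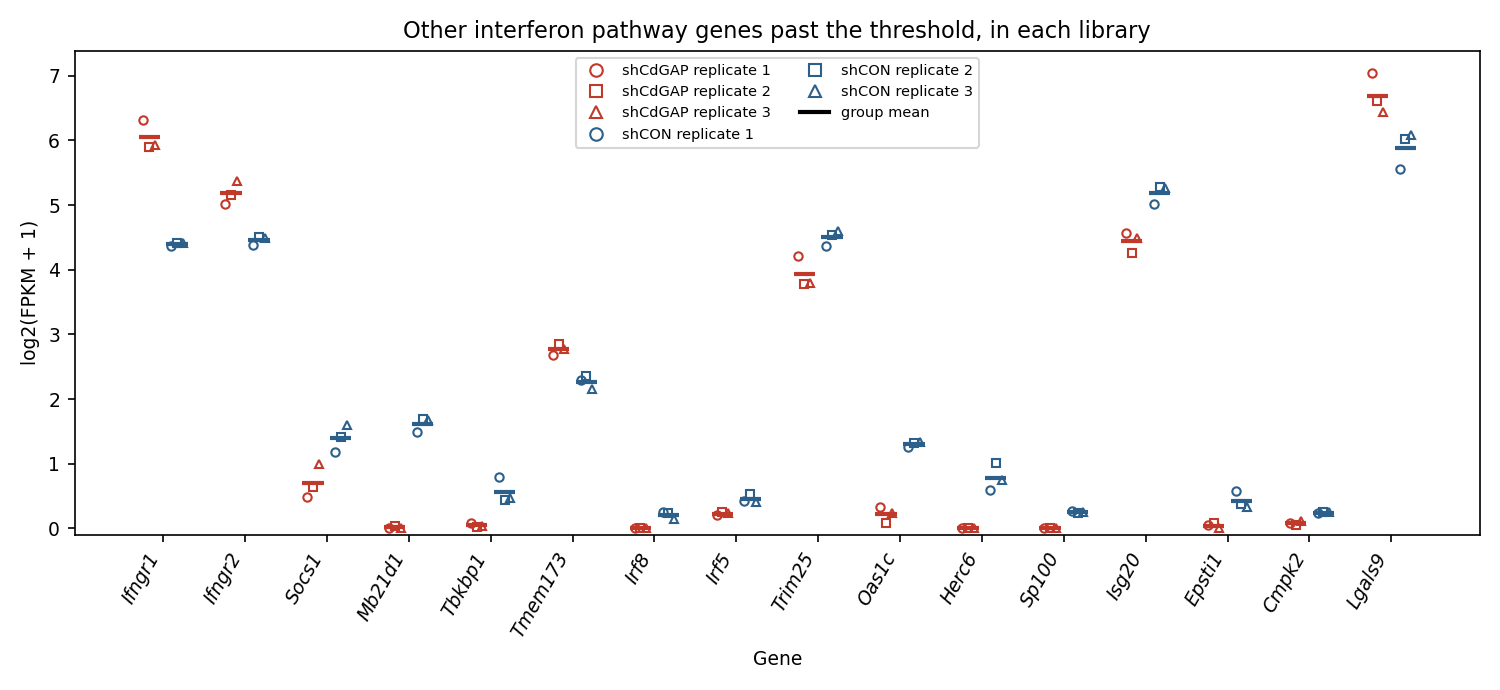
Level, as log2(FPKM + 1), of the 16 genes past the threshold in the 3 lists of other interferon pathway genes, in each shCdGAP (red) and shCON (blue) library; symbols mark replicates 1 to 3 and lines the group means. Ifngr1, Ifngr2, Tmem173 and Lgals9 lie higher in shCdGAP, and the shCdGAP points of Mb21d1, Irf8, Herc6 and Sp100 lie at or near 0.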

How the data were processed

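The authors deposited 1 table of FPKM values. It also carries, per the file headers, the authors' own DESeq2 result for shCdGAP over control, with the mean signal, log2 fold change, standard error, test score and p-values of each gene. Tools named by the authors, per the submitters' processing notes and without roles, were featureCounts, DESeq2, Trimmomatic and TopHat2 2.0.13, and the build was mm10. No annotation release or strand setting is named in the sources used here. Reads were recovered from each deposited FPKM, the mean signal and a size factor fitted per library, and 100% of values came out whole (tolerance 1e-06). They served for depth, intervals, the filter and limma-voom.

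Groups and replicate numbers came from the titles. The filter kept genes with 10 or more reads (at median depth) in 3 or more libraries and a total of 15 or more. limma 3.58.1 in R 4.3.3 was run on log2(FPKM + 1) with the group as single term and empirical Bayes with trend and robust. Tests were 2-sided and adjusted over all 13483 genes kept, with a threshold of 0.05. Means ± SD are over 3 libraries. The steps were tested on simulated data whose changed genes had many reads in every library. Changed genes with few reads, and a library that stands apart, were not simulated. Positions come from GENCODE M21 of the same build, which holds all 32 identifiers, and promoters from RefSeq, GRCm38.p6. Exon overlaps and shared 50-base windows were counted in GENCODE. Other software was Python 3.11.15 with pandas 2.3.3, numpy 2.4.6 and, for plots, matplotlib 3.10.9.

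The members and lists were chosen with earlier results of these data known. All 32 were named. Values per library are given for those past the threshold with all libraries or without shCdGAP replicate 1, for the 8 with the highest mean FPKM, and for others with few reads. In the 3 lists of other genes, those past the threshold were named, up to 8 a list, and Ifnar1, Ifnar2 and the ligands were added after their values were seen. Same-numbered libraries of the 2 groups deviated together from their group means, with correlations across genes of 0.43 for number 1, 0.39 for number 2 and 0.34 for number 3. The crossed values were 0.35 (shCdGAP 2 and shCON 3) and 0.27 (shCdGAP 3 and shCON 2), so numbers 2 and 3 were not separated from each other. Those between number 1 and number 2 or 3 were -0.44 to -0.35. Deviations were taken from the mean of the same libraries, so these correlations are not independent of each other. Since every same-numbered correlation was over 0.1, a block for the number was run as an alternative, although no label states such pairs. The main fit was not paired. Alternatives were the replicate number as a block, another pseudocount, other filters and scalings, limma-voom, and leaving out each library or both numbered 1.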

Additional observations from a re-analysis of the deposited data

How the results depend on the processing

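With all 6 libraries, 10 antiviral genes were lower and 1 higher, 12 and 4 other interferon pathway genes were lower and higher, and 1501 and 1337 of all genes. Leaving out 1 library at a time gave 8 to 16 antiviral genes lower and 0 to 1 higher, 5 to 23 and 1 to 6 other pathway genes lower and higher, and 768 to 2693 and 469 to 2680 of all genes. Without both libraries numbered 1 these counts were 17 and 2, 30 and 7, and 3230 and 3276. Among genes of at least 5 CPM, where fewer genes were tested, 2 antiviral genes were lower and 0 higher, 2 other pathway genes were lower, and 922 of all genes were lower. Bst2, the 1 antiviral gene higher, was not called with library size scaling, trimmed mean scaling, no filter, limma-voom or the replicate block, which each gave 0 higher, nor with quantile scaling, where Ifih1 was higher instead. Quantile scaling gave 7 other pathway genes lower. With no filter, and with quantile scaling, 8 antiviral genes were lower, and Ifit1 (adjusted p = 0.0618 and 0.0884, limma) and Xaf1 (0.075 and 0.102) were not called. The replicate block left 9 antiviral genes lower, having ended the calls of Bst2 and Ifit1 alone among the 11. Oas1a, Oas1b, Oas1g, Oas3, Oasl1, Mx1, Rsad2 and Isg15 passed as lower in every alternative that tested them. Of these, only Oas3 and Oasl1 were tested among genes of at least 5 CPM. Oas1a, Oas1b, Oas1g, Oas3 and Rsad2 had been tested through shCON alone. The fits that leave out libraries kept the genes of the main filter, so that passing again was partly built in for them. Directions turned only for genes not called: Irf9 (-0.082) and Parp9 (-0.044) without both libraries numbered 1, Oasl2 (0.0025) with quantile scaling, and Ifit2 without both libraries numbered 1 (0.0017), with quantile (0.061) or trimmed mean scaling (0.0013), and, among fits that leave out 1 library (-0.0407 to 0.0406), without shCON replicate 2 (0.038) or shCdGAP replicate 1 (0.041). The cause was not tested. Low reads limit Oas2, Ifi44, Ifit3, Mx2, Gbp2 and Gbp3.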
